A study of Mus musculus with 4 samples.

Results

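The translation initiation factor genes were described across WT and Haspin-KO mouse embryonic stem cells (mESCs). The members were the rows of the deposited table with a symbol starting with Eif and a digit from 1 to 6, without the pseudogenes marked "-ps" and without Y-linked rows, which gave 57 of the 55401 genes listed. Of the 68 rows with such a symbol, 10 were left out as pseudogenes and 1, Eif2s3y, as Y-linked. RNA-seq was done on 2 libraries of WT and 2 libraries of Haspin-KO cells, all of the E14 line. Haspin is the kinase that phosphorylates histone H3 at threonine 3 in dividing cells. Haspin-KO cells were made with CRISPR/Cas9 and a pair of guide RNAs and kept as single clones without the H3T3 phosphorylation signal. 2 such lines were made, and the labels do not say which line each library came from. No group received a further treatment, and all cells grew in medium with serum, LIF and the inhibitors PD0325901 and CHIR99021. Stocks were passaged on mitomycin C-treated mouse embryonic fibroblast feeders, and gelatin-coated plates were used for assays. Nothing states that the libraries of a group came from separate cultures, so p-values measure the spread between these libraries, which may be technical.

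Initiation is the step at which a ribosome is loaded on an mRNA and placed at the start codon. eIF2 brings the initiator tRNA to the small ribosomal subunit as a complex with GTP, eIF2B recharges eIF2 with GTP, and the eIF2 kinases block that recharging under stress. eIF3 is the large multi-subunit scaffold on the small subunit, the eIF4 factors bind the mRNA cap and unwind the leader, and eIF1, eIF1A, eIF5 and eIF5B act in start codon choice and joining of the large subunit. In embryonic stem cells the rate of protein synthesis is known to be kept low and to rise on differentiation.

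The libraries held 21834847 and 17452307 counts in WT and 14207828 and 14436750 counts in Haspin-KO cells. Haspin itself was at 40.1 and 35.7 CPM (counts scaled to a common library total with edgeR's TMM factors) in WT and at 10.4 and 14.6 CPM in Haspin-KO cells. It fell by 1.60 on the log2 scale (SE 0.16, edgeR adjusted p = 0.0015). Of 10 mESC markers (Pou5f1, Nanog and others), 0 were called by edgeR at an adjusted p under 0.05, and DESeq2 called 1 (Klf4, lower). In edgeR 3 had an unadjusted p under 0.05, all 3 lower, against 10.4% of all genes in that direction. The summed level of the 10 markers was 6851 and 7058 CPM in WT and 6450 and 6567 CPM in Haspin-KO cells, without overlap, and 8 of the 10 estimates lay below 0. The summed level of 13 fibroblast markers was 175 and 132 CPM in WT against 20.3 and 19.1 CPM in Haspin-KO cells. Of the 10 tested, edgeR called 8 lower at an adjusted p under 0.05, against 2.5% of all genes called, and DESeq2 called 6 lower. 9 of the 10 estimates lay below 0 and 1 above. Postn, Dcn and Twist2 were at 0 in both Haspin-KO libraries, and Lum was at 0 in all 4 libraries. The 8 markers of 2-cell-like cells, a rare state within mESC cultures, summed to 44.6 and 38.8 CPM in WT. In Haspin-KO cells their sum was 105 and 88.7 CPM. All 7 tested had estimates above 0, and edgeR and DESeq2 each called 3 of them higher at an adjusted p under 0.05. In edgeR 5 had an unadjusted p under 0.05, all 5 higher, against 10.4% of all genes in that direction. Of 5 primitive endoderm markers, 4 were tested and 0 had an unadjusted p under 0.05 in edgeR or were called by DESeq2. The part of these cell types in the results below was not tested.

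No member was called as changed between Haspin-KO and WT mESCs by edgeR, 2 were called lower by DESeq2, and the estimates for most members were close to 0. The Y-linked initiation factor gene Eif2s3y, which is not a member, was called lower by edgeR and is given below. The members made up 1.60% and 1.58% of all counts in the WT libraries and 1.58% and 1.58% in the Haspin-KO libraries. 56 members had counts high enough for edgeR's filter. At an adjusted p under 0.05, 0 of these 56 were called, while 2.5% of all 15580 genes tested were. 0 members were differentially expressed genes (DEGs, which also needed a fold change over 2), against 0.828% of all genes. The smallest adjusted p was that of Eif3i, at 0.051. The 2 members called by DESeq2 were Eif3i and Eif3k, and it gave no adjusted p for 3 others, while limma called 0 of the members and 0 of all genes. 15 members (26.8%) had an unadjusted p under 0.05, against 20.8% of all genes. Of these, 7 were higher, against 10.4% of all genes, and 8 were lower, against 10.4% of all genes.

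The log2 fold changes of the 56 members ran from -0.34 to 0.62 with a median of -0.04, against -0.004 over all genes. 18 estimates lay above 0 and 38 below. Both Haspin-KO libraries lay above both WT libraries for 12 members (21.4%), against 25.3% of all genes, and below them for 19 members (33.9%), against 26.9% of all genes. The 95% confidence interval of the log2 fold change lay within -1 and 1 for 51 members (91.1%), against 77.1% of all genes, and within -0.5 and 0.5 for 48 members (85.7%), against 48.3%. A change of more than 2-fold therefore lay outside the interval of those 51 members. The other 5 members, Eif4a3l1, Eif4a3l2, Eif4ebp3, Eif4e1b and Eif4e3, had wider intervals. Intervals narrow as counts rise, and 52 of the 56 members were over 5 CPM. The shares of intervals over all genes were not matched for level. The 2 WT libraries differed by a median of 0.11 on the log2 scale over the members, against 0.14 over all genes. The 2 Haspin-KO libraries differed by 0.08, against 0.15. The median size of the fold change between groups was 0.12, against 0.18 over all genes.

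**Figure D1:**
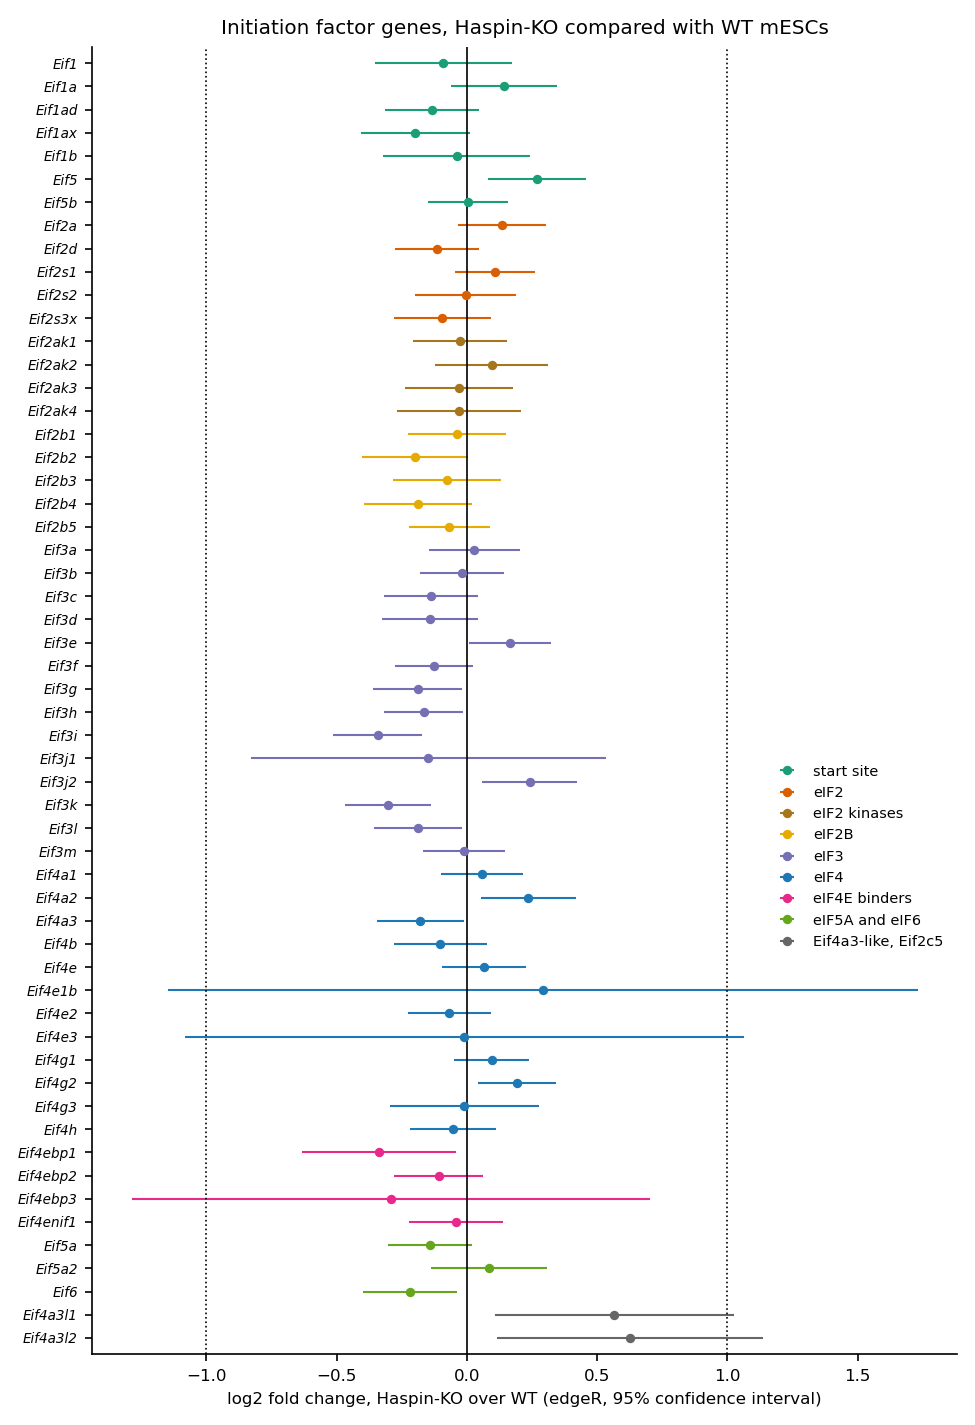
Log2 fold change of each of the 56 members tested, Haspin-KO over WT, with its 95% confidence interval from edgeR (x axis, dotted lines at a 2-fold change), ordered and coloured by role. Points lie between -0.34 and 0.62, and 51 intervals lie between the dotted lines.

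Levels differed widely between members. On the FPKM scale (counts scaled to exon length and library total, as deposited), Eif5a had the highest mean over the 4 libraries, followed by Eif4b, Eif3h, Eif3c and Eif3b. Eif5a, the factor that keeps ribosomes moving at difficult peptide bonds and takes part in termination, was at 521 and 469 FPKM in WT and at 463 and 439 FPKM in Haspin-KO cells. The members with the lowest means were Eif2c5, Eif4e3, Eif4e1b, Eif3j1 and Eif4ebp3. Eif2c5 is annotated as a long intergenic non-coding RNA on chromosome X and is listed in RefSeq under an older symbol of an Argonaute gene. It had 3 and 1 counts in WT and 0 and 0 counts in Haspin-KO cells, at or under the floor of 3 counts in each library, so it was not tested and no fold is given.

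**Figure D2:**
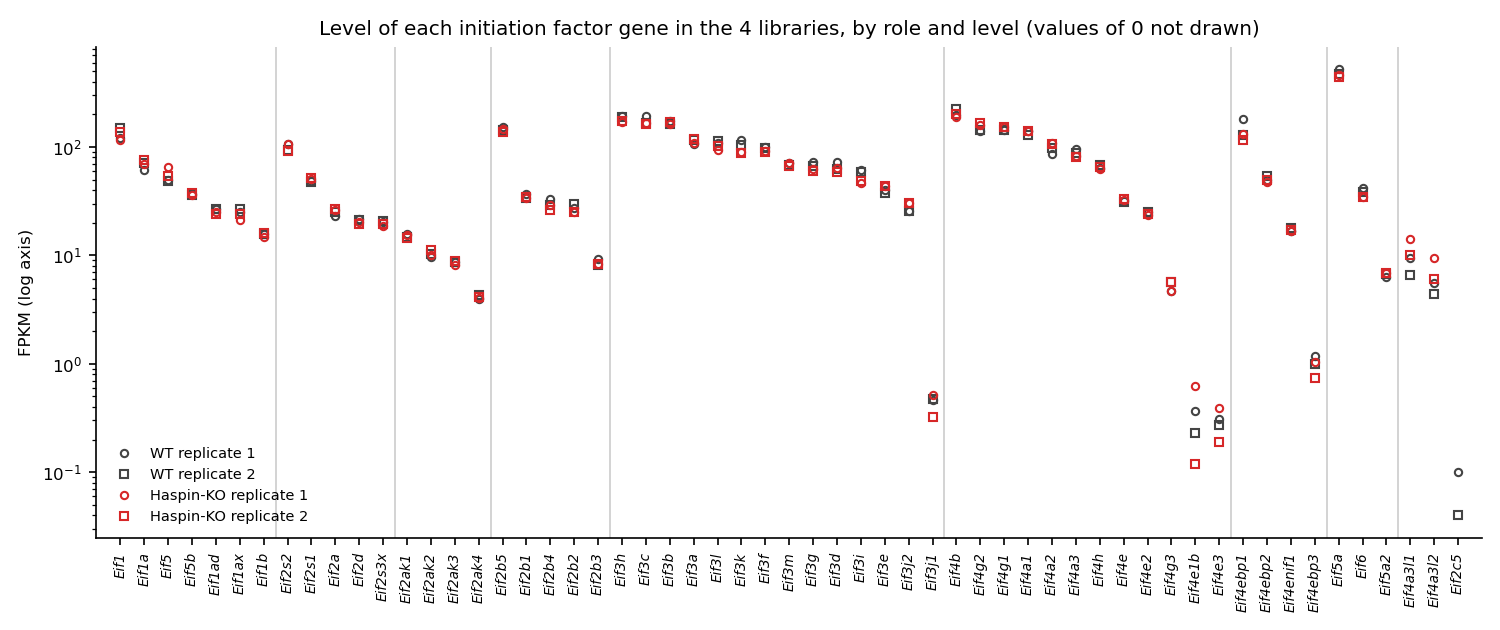
FPKM of the 57 members in each library (y axis, log scale), grouped by role and ordered by mean level within a role. Grey symbols are the 2 WT and red symbols the 2 Haspin-KO libraries, Eif5a stands highest and Eif2c5 lowest, and the spread between members is far wider than that between the libraries of a member.

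Among the factors of start codon choice, Eif5 had the smallest p. Eif5, which makes eIF2 hydrolyse its GTP at the start codon (ENSMUSG00000021282, mm10 chromosome 12, 111538016 to 111546752), was at 340 and 335 CPM in WT and at 439 and 375 CPM in Haspin-KO cells. Both Haspin-KO libraries were above both WT libraries, and Haspin-KO replicate 1 was the higher of the pair. The log2 fold change was 0.27 (SE 0.084, edgeR adjusted p = 0.118). Without Haspin-KO replicate 2 it was 0.38 (adjusted p = 0.014), and without Haspin-KO replicate 1 it was 0.15 (adjusted p = 0.462).

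eIF1A, which holds the scanning ribosome open together with eIF1, is encoded by a pair of genes, Eif1a and the X-linked Eif1ax. Eif1a was at 253 and 296 CPM in WT and at 288 and 317 CPM in Haspin-KO cells, with overlapping groups (log2 fold change 0.14, adjusted p = 0.402). Eif1ax was at 132 and 141 CPM in WT and at 110 and 129 CPM in Haspin-KO cells, with both Haspin-KO libraries below WT (log2 fold change -0.20, adjusted p = 0.260). Eif1a made up 65.7% and 67.7% of their summed CPM in WT and 72.5% and 71.1% in Haspin-KO cells, which did not overlap, while the sum itself did, at 385 and 437 CPM in WT and 398 and 446 CPM in Haspin-KO cells. This share was looked at after the values were seen and was not tested. Their exon sequences shared no 50-base stretch.

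Eif1 and Eif1b encode the eIF1 that rejects wrong start codons, and Eif1 was the member of highest FPKM in this group, at a mean of 130. Eif1 was at 252 and 314 CPM in WT and at 241 and 290 CPM in Haspin-KO cells. Eif1b, the lowest in this group, was at 17.8 and 18.0 CPM in WT and at 16.6 and 18.2 CPM in Haspin-KO cells. Both overlapped between the groups, as did Eif5b, the GTPase that joins the subunits (log2 fold change 0.004, 95% interval -0.15 to 0.16). Eif1ad, an eIF1A domain gene, had a log2 fold change of -0.13 (adjusted p = 0.375).

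The eIF2 genes and those that act on eIF2 were near 0. The alpha subunit gene Eif2s1, which carries the serine the kinases phosphorylate, was at 238 and 235 CPM in WT and at 249 and 261 CPM in Haspin-KO cells (log2 fold change 0.11, 95% interval -0.05 to 0.26). The beta subunit gene Eif2s2 was the highest of the eIF2 genes, at a mean of 99.7 FPKM, with a log2 fold change of -0.005 (95% interval -0.20 to 0.19). Eif2a and Eif2d, which deliver initiator tRNA without eIF2, had log2 fold changes of 0.13 (adjusted p = 0.345) and -0.11 (adjusted p = 0.390).

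The gamma subunit of eIF2 is encoded by an X-linked and a Y-linked gene in mice. The member Eif2s3x was at 76.6 and 79.6 CPM in WT and at 70.6 and 75.7 CPM in Haspin-KO cells, just below WT in both Haspin-KO libraries (log2 fold change -0.09, adjusted p = 0.555). Its Y-linked copy Eif2s3y, which the rule leaves out, was at 47.7 and 55.0 CPM in WT and at 16.7 and 23.7 CPM in Haspin-KO cells. It fell by 1.34 on the log2 scale (SE 0.16, edgeR adjusted p = 0.0038). Of the other Y-linked genes looked up (Ddx3y, Kdm5d and Uty), Ddx3y fell by 0.89 and Uty by 1.08 on the log2 scale. No estimate is given here for Kdm5d. As this list is given only in part, no direction of the Y-linked genes as a group is read from it. The sum of Eif2s3x and Eif2s3y was 124 and 135 CPM in WT and 87.3 and 99.5 CPM in Haspin-KO cells. Eif2s3x and Eif2s3y shared no 50-base stretch. However, 34.6% of the stretches of Eif2s3x recur in the predicted gene Gm2223, which is not in this sum, so the counts of Eif2s3x may be split. Gm2223 had a log2 fold change of 0.15 (edgeR adjusted p = 0.551). Why Eif2s3y, Ddx3y and Uty were lower was not tested.

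All 4 eIF2 kinase genes had overlapping groups. Eif2ak1 (HRI, which senses lack of haem) was at 89.2 and 83.8 CPM in WT and at 86.2 and 83.8 CPM in Haspin-KO cells, and was the highest of them in FPKM. Eif2ak2 (PKR, which senses double-stranded RNA), Eif2ak3 (PERK, which senses unfolded proteins in the endoplasmic reticulum) and Eif2ak4 (GCN2, which senses lack of amino acids) had log2 fold changes of 0.10, -0.03 and -0.03. Their 95% intervals lay between -0.27 and 0.31, and Eif2ak4 was the lowest at a mean of 4.11 FPKM.

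The 5 genes of eIF2B all had estimates below 0, with a median log2 fold change of -0.08. Leaving out WT replicate 1 put 2 of the 5 above 0, and leaving out Haspin-KO replicate 1 put 1 above 0. Eif2b2 (beta subunit) was at 51.9 and 56.1 CPM in WT and at 46.4 and 47.6 CPM in Haspin-KO cells (log2 fold change -0.20, adjusted p = 0.245). Eif2b4 (delta subunit) was at 86.0 and 76.8 CPM in WT and at 74.6 and 68.3 CPM in Haspin-KO cells (log2 fold change -0.19, adjusted p = 0.280). Both were lower in each Haspin-KO library, and Eif2b1, Eif2b3 and Eif2b5 overlapped. Eif2b5, the catalytic subunit, was the highest of the 5 at a mean of 146 FPKM and Eif2b3 the lowest at 8.48 FPKM.

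The eIF3 genes held the members with the smallest p. Of the 14 eIF3 genes, 11 had estimates below 0 and 3 above, with a median log2 fold change of -0.14. 8 lay below WT in both Haspin-KO libraries, against 26.9% of all genes, and 2 above, against 25.3%. At an unadjusted p under 0.05, 5 were lower and 2 higher, against 10.4% of all genes in each direction. At least 10 of the eIF3 estimates stayed below 0 under every alternative setting run. The summed level of the 14 genes was 4733 and 4606 CPM in WT and 4310 and 4503 CPM in Haspin-KO cells.

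Eif3i, a WD40 subunit bound to the RNA-binding module (ENSMUSG00000028798, mm10 chromosome 4, 129591960 to 129600648), was at 229 and 217 CPM in WT and at 169 and 183 CPM in Haspin-KO cells. The group means were 223 ± 8.26 (SD, n = 2) and 176 ± 10.3 (SD, n = 2), and the groups did not overlap. The log2 fold change was -0.34 (SE 0.076, 95% interval -0.51 to -0.17, edgeR adjusted p = 0.051), a level 21.1% lower. DESeq2 gave an adjusted p of 0.015 for it. The call turned on the setting. The edgeR adjusted p was 0.048 with library totals, 0.0024 without a filter and 0.053 with DESeq2's size factors, and limma gave 0.134. The log2 fold change was -0.28 without Haspin-KO replicate 1 and -0.41 without Haspin-KO replicate 2. It was -0.31 without WT replicate 1 and -0.38 without WT replicate 2.

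Eif3k, a small subunit that pairs with the product of Eif3l (ENSMUSG00000053565, mm10 chromosome 7, 28971372 to 28981864), was at 310 and 283 CPM in WT and at 242 and 239 CPM in Haspin-KO cells. The groups did not overlap, and the log2 fold change was -0.30 (SE 0.074, 95% interval -0.47 to -0.14, edgeR adjusted p = 0.065, DESeq2 adjusted p = 0.029). Eif3l was at 393 and 413 CPM in WT and at 335 and 372 CPM in Haspin-KO cells (log2 fold change -0.19, adjusted p = 0.202, and -0.11 without Haspin-KO replicate 1). Eif3g, an RNA-binding subunit, was at 143 and 134 CPM in WT and at 122 and 121 CPM in Haspin-KO cells (log2 fold change -0.19, adjusted p = 0.197). Eif3h, the highest eIF3 gene at a mean of 181 FPKM, was at 311 and 307 CPM in WT and at 269 and 282 CPM in Haspin-KO cells (log2 fold change -0.17, adjusted p = 0.208). None of these overlapped between the groups.

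The other eIF3 genes did not share that direction throughout. Eif3e, a subunit of the octameric core, was at 270 and 254 CPM in WT and at 292 and 296 CPM in Haspin-KO cells (log2 fold change 0.16, adjusted p = 0.219), above WT in both libraries. The subunit genes Eif3a, Eif3b and Eif3m overlapped, with log2 fold changes of 0.03, -0.02 and -0.01. Eif3c, Eif3d and Eif3f had log2 fold changes between -0.14 and -0.13, with both Haspin-KO libraries below WT, and 43.3% of the exonic bases of Eif3d overlap a predicted gene, so its counts are less certain.

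Eif3j, the loosely bound subunit at the mRNA entry channel, is encoded by the near-identical Eif3j1 and Eif3j2. Of the 50-base stretches of Eif3j2, 90.8% also occur in Eif3j1, and 36.6% of those of Eif3j1 occur in Eif3j2, so that reads could be split between them. Eif3j1 was at 2.65 and 2.77 CPM in WT and at 2.99 and 1.89 CPM in Haspin-KO cells. Eif3j2 was at 60.7 and 62.0 CPM in WT and at 71.8 and 73.1 CPM in Haspin-KO cells (log2 fold change 0.24, adjusted p = 0.140). Summed over the pair, the level was 63.3 and 64.7 CPM in WT and 74.8 and 74.9 CPM in Haspin-KO cells. These sums did not overlap, with a log2 ratio of the means of 0.23. The treatment of reads that match both genes was not given, so the sum may leave such reads out.

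**Figure D3:**
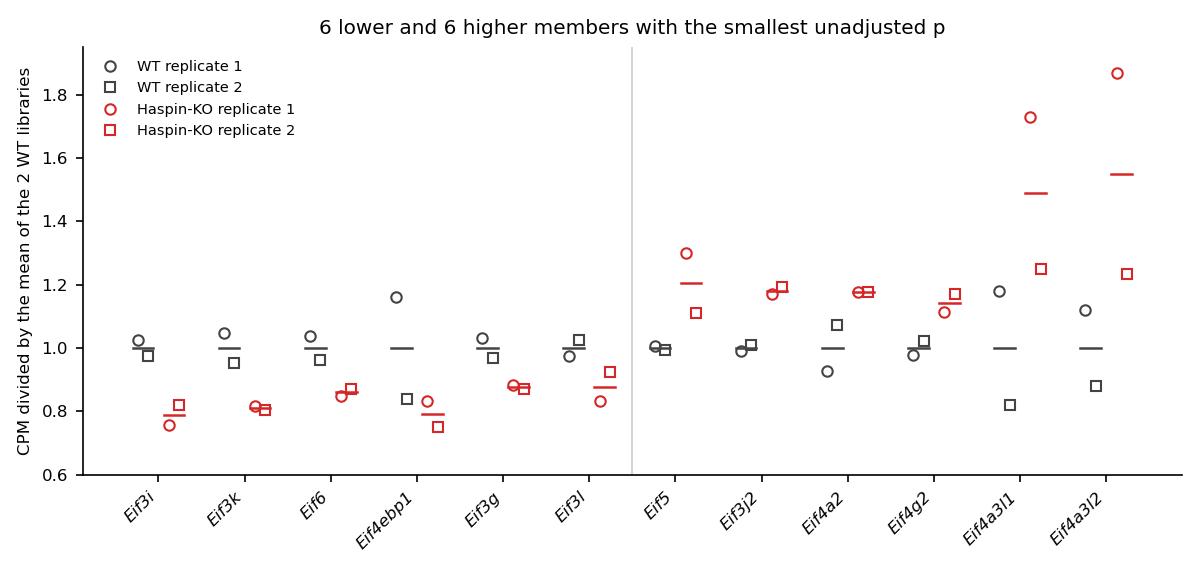
CPM of each library divided by the mean of the 2 WT libraries (y axis, starting at 0.6), for the 6 lower and 6 higher members with the smallest unadjusted p. Grey symbols are WT and red symbols Haspin-KO libraries, bars are group means, and the groups do not overlap for any of the 12, which were chosen by their p.

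Among the eIF4 genes 6 estimates lay above 0 and 6 below. Eif4a2, one of the helicase genes of eIF4A (ENSMUSG00000022884, mm10 chromosome 16, 23107444 to 23114136), was at 455 and 528 CPM in WT and at 578 and 578 CPM in Haspin-KO cells (log2 fold change 0.24, SE 0.081, adjusted p = 0.145). Without WT replicate 1 it was 0.13 (adjusted p = 0.593). Its copy Eif4a1 was at 612 and 561 CPM in WT and at 607 and 613 CPM in Haspin-KO cells (log2 fold change 0.06, 95% interval -0.10 to 0.22), with overlap. They shared no 50-base stretch, but 24.2% of the stretches of Eif4a1 occur in the pseudogene Eif4a-ps4, which was itself counted at 514 to 557 CPM in the 4 libraries. Eif4a1 and Eif4a-ps4 together were at 1169 and 1075 CPM in WT and at 1160 and 1128 CPM in Haspin-KO cells.

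Eif4g2, which drives cap-independent initiation and does not bind eIF4E, was at 1416 and 1480 CPM in WT and at 1612 and 1695 CPM in Haspin-KO cells. Both Haspin-KO libraries lay above WT (log2 fold change 0.19, SE 0.067, adjusted p = 0.151). The cap-complex scaffold Eif4g1 was at 1043 and 1057 CPM in WT and at 1110 and 1132 CPM in Haspin-KO cells (log2 fold change 0.09, adjusted p = 0.432), and its copy Eif4g3 overlapped, at 52.0 and 64.0 CPM against 51.7 and 63.3 CPM.

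The cap-binding gene Eif4e was at 189 and 187 CPM in WT and at 191 and 203 CPM in Haspin-KO cells (log2 fold change 0.07, 95% interval -0.09 to 0.23). Eif4e2, which binds caps weakly and acts as a repressor, was at 188 and 189 CPM in WT and at 176 and 183 CPM in Haspin-KO cells (log2 fold change -0.07). Eif4e1b, known from oocytes, and Eif4e3 lay between 0.28 and 1.39 CPM in every library, where the depth gave intervals wider than 2-fold in either direction. The helicase cofactors Eif4b and Eif4h overlapped, with log2 fold changes of -0.10 and -0.06, and Eif4b was the highest eIF4 gene at a mean of 203 FPKM.

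Eif4a3 encodes the helicase of the exon junction complex rather than of the cap complex, and mice carry the copies Eif4a3l1 (ENSMUSG00000094973) and Eif4a3l2 (ENSMUSG00000107906) on chromosome 6. Both copies are annotated as protein-coding, Eif4a3l2 as a single exon, and their coding sequences have the length of that of Eif4a3, 1236 bases, and are 96.2% and 96.8% identical to it. The first 120 coding bases are shown because these copies had the highest fold changes of all members and are close to Eif4a3 in sequence. Over the whole coding sequence 1189 and 1196 of the 1236 bases are identical, so this window differs more for its length. Capitals mark the bases that differ from Eif4a3, which are 10 in Eif4a3l1 and 12 in Eif4a3l2. Sequences are from GENCODE M21 transcripts (GRCm38, the mm10 build), 5′ to 3′, at chr11:119299877-119299996 (minus strand), chr6:136328543-136328662 (plus strand) and chr6:116551164-116551283 (plus strand).
Eif4a3: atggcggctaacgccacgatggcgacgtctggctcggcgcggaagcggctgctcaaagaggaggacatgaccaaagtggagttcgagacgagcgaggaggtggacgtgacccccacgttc
Eif4a3l1: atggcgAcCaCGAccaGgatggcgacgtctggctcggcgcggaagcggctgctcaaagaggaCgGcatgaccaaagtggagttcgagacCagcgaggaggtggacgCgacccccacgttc
Eif4a3l2: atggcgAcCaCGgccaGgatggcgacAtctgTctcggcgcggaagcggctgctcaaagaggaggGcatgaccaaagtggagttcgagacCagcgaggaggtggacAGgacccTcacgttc

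Eif4a3l1 was at 15.0 and 10.4 CPM in WT and at 22.0 and 15.9 CPM in Haspin-KO cells (log2 fold change 0.57, SE 0.20, 95% interval 0.11 to 1.03, edgeR adjusted p = 0.163). Eif4a3l2 was at 7.64 and 5.999 CPM in WT and at 12.7 and 8.40 CPM in Haspin-KO cells (log2 fold change 0.62, SE 0.23, 95% interval 0.11 to 1.13, adjusted p = 0.164). In both, replicate 1 was the higher library of each group and the Haspin-KO libraries lay above WT. Without Haspin-KO replicate 2, edgeR gave log2 fold changes of 0.78 (adjusted p = 0.0065) and 0.89 (adjusted p = 0.0079). Without Haspin-KO replicate 1 they were 0.31 (adjusted p = 0.397) and 0.30 (adjusted p = 0.57), and without WT replicate 2 they were 0.34 (adjusted p = 0.469) and 0.47 (adjusted p = 0.425). Without WT replicate 1 that of Eif4a3l1 was 0.86 (adjusted p = 0.141). Eif4a3 was at 205 and 189 CPM in WT and at 174 and 174 CPM in Haspin-KO cells, below WT (log2 fold change -0.18, adjusted p = 0.215). The copies share 42.9% of the 50-base stretches of Eif4a3l1 and 51.3% of those of Eif4a3l2, and 8.19% and 10.1% of those of Eif4a3 recur in them, so that the 3 counts are not fully separable. The sum of Eif4a3l1 and Eif4a3l2 was 22.7 and 16.4 CPM in WT and 34.7 and 24.3 CPM in Haspin-KO cells.

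The 4 genes grouped here as eIF4E binders (Eif4ebp1, Eif4ebp2, Eif4ebp3 and Eif4enif1), apart from the eIF4 genes above, had estimates below 0. Leaving out WT replicate 2 put 1 of the 4 above 0. Eif4ebp1, the repressor that releases eIF4E when mTOR phosphorylates it (ENSMUSG00000031490, mm10 chromosome 8, 27260329 to 27276674), was at 398 and 288 CPM in WT and at 286 and 257 CPM in Haspin-KO cells. WT replicate 1 stood above the other 3 libraries, and WT replicate 2 lay just above Haspin-KO replicate 1. The log2 fold change was -0.34 (SE 0.13, adjusted p = 0.190). It was called without Haspin-KO replicate 1 (-0.41, adjusted p = 0.005) and without WT replicate 2 (-0.55, adjusted p = 0.046), while without WT replicate 1 the log2 fold change was -0.09 (adjusted p = 0.767). Eif4ebp2 was at 287 and 316 CPM in WT and at 271 and 289 CPM in Haspin-KO cells, with overlap (log2 fold change -0.11). Eif4ebp3 was between 0.56 and 0.87 CPM in every library, and 67.3% of its exonic bases lie in exons of an overlapping gene. Eif4enif1, the transporter of eIF4E, had a log2 fold change of -0.04 (95% interval -0.22 to 0.14).

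Eif6, which keeps the large subunit from joining too early, was at 113 and 104 CPM in WT and at 92.3 and 94.6 CPM in Haspin-KO cells, without overlap (log2 fold change -0.22, SE 0.080, adjusted p = 0.167). Eif5a had a log2 fold change of -0.14 (adjusted p = 0.30), with both Haspin-KO libraries below WT. Its copy Eif5a2 was at 31.6 and 34.0 CPM in WT and at 34.5 and 35.02 CPM in Haspin-KO cells (log2 fold change 0.09, adjusted p = 0.670).

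The sign of the fold change went with base composition across the members. The Spearman correlation between GC content of the exons and the log2 fold change was -0.46 over the 56 members and -0.39 over the 15568 genes with a GC content, and Pearson's r was -0.33 and -0.23. Genes of 1 set of libraries are not independent, so these are descriptions. The 8 lower members with an unadjusted p under 0.05 had a median GC content of 52.3% (50.02% to 56.9%), and the 7 higher ones of 43.1% (37.7% to 53.6%). With a GC and length correction, added after the data were seen, Eif5 moved to a log2 fold change of 0.08, Eif3j2 to 0.04, Eif4a2 to 0.03, Eif4g2 to -0.01 and Eif3e to -0.15. Of the lower members, Eif3g moved to -0.06, Eif3h to -0.09, Eif4a3 to -0.10, Eif6 to -0.11, Eif3l to -0.16, Eif3k to -0.21, Eif3i to -0.30 (adjusted p = 0.085) and Eif4ebp1 to -0.31. Estimates moved away from 0 for Eif1ax, to -0.41 (adjusted p = 0.052), for Eif2s2, to -0.25, and for Eif4a3l1 and Eif4a3l2, to 0.68 and 0.74. 12 members changed sign under this correction, and 10 had an unadjusted p under 0.05, against 16.3% of all genes. Whether base composition affected the counts was not tested otherwise.

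**Figure D4:**
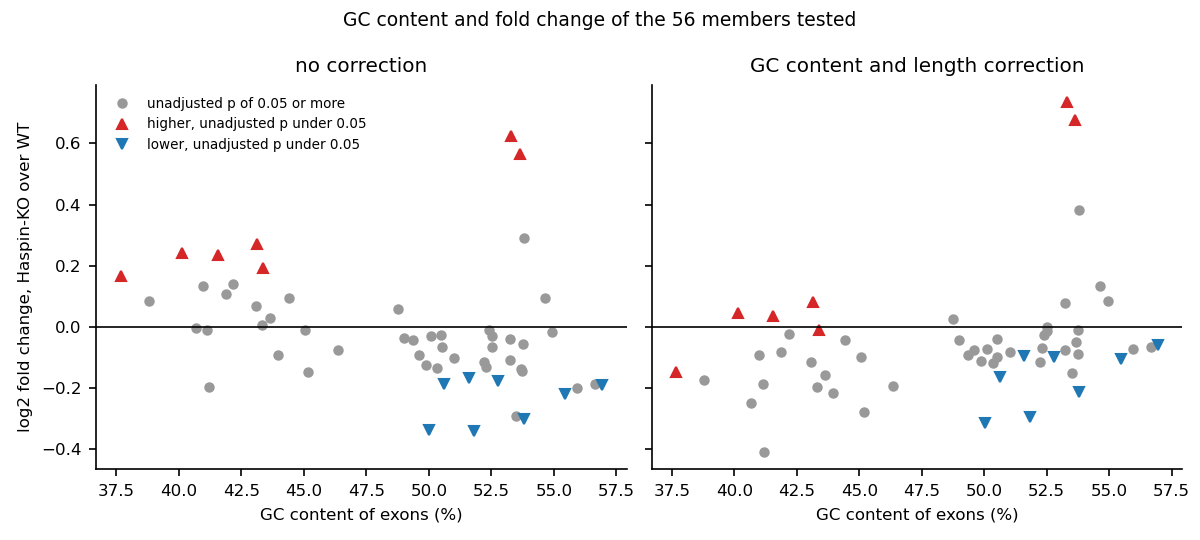
Log2 fold change (Haspin-KO over WT, y axis) against GC content of the exons (percent, x axis) for the 56 members tested, without (left) and with (right) the GC and length correction. Symbols in both panels follow the test without correction, where the higher members other than Eif4a3l1 and Eif4a3l2 lie below 45% GC and the lower members at 50% or above. With the correction those 5 higher members lie between -0.15 and 0.08.

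The GO term translational initiation, as listed in the deposited table, named 498 rows, of which 31 were members and 460 had no Eif symbol. Of the 460, 130 had a ribosomal protein symbol (Rpl or Rps, pseudogenes included) and 317 were predicted genes with a Gm symbol. 122 of the 460 were tested, and by edgeR 4 rose and 17 fell at an adjusted p under 0.05, against 2.5% of all genes called. DESeq2 called 5 higher and 24 lower. The 31 members in the term had a median log2 fold change of -0.03, and the 122 other genes had a median of -0.15. Of the 31, edgeR called 0 and DESeq2 called 1, Eif3i. At an unadjusted p under 0.05 in edgeR, 3 were higher and 5 lower, against 10.4% of all genes in each direction. Among 58 tested genes with an Rpl or Rps symbol, 11 fell by less than 2-fold and 0 rose. The DEGs among the 122 were Gm2016, Gm5662, Gm8300 and Gm5039, which rose, and Gm8292, a processed pseudogene at 6.23 and 4.73 CPM in WT and 2.58 and 1.26 CPM in Haspin-KO cells (log2 fold change -1.52, SE 0.33, adjusted p = 0.047). The call of Gm8292 did not hold without WT replicate 1 (adjusted p = 0.243) or without WT replicate 2 (adjusted p = 0.101).

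**Figure D5:**
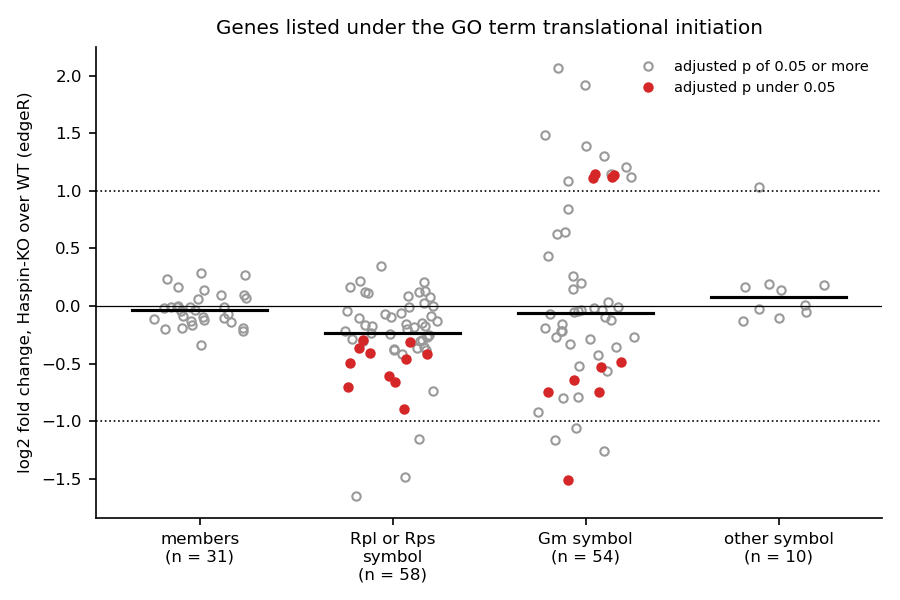
Log2 fold change (y axis, Haspin-KO over WT) of the tested genes under the GO term translational initiation, split into 31 members, 58 genes with an Rpl or Rps symbol, 54 with a Gm symbol and 10 others. Filled red points have an adjusted p under 0.05, black lines are medians and dotted lines mark a 2-fold change. No member is filled, while 11 Rpl or Rps genes and 10 Gm genes are.

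The 4 predicted genes that rose encode copies of eIF1A. Their coding sequences are 435 bases long, as is that of Eif1ax, and were 84.8% to 85.1% identical to Eif1ax and 94.0% to 94.9% identical to Eif1a. They lie on chromosome 12, where Gm2016 and Gm5662 share 75.2% and 72.1% of their 50-base stretches, so that the counts of that pair can be split. Their first 120 coding bases are shown beside those of Eif1ax because these were the genes of the term without an Eif symbol that rose in edgeR, and the letters show what kind of gene they are. Capitals mark bases that differ from Eif1ax. Sequences are from GENCODE M21 transcripts (GRCm38), 5′ to 3′, at chrX:159372400-159377478 (plus strand, across an intron) for Eif1ax, chr12:87876585-87876704 (plus strand) for Gm2016, chr12:88271869-88271988 (minus strand) for Gm5662, chr12:87516897-87517016 (plus strand) for Gm8300 and chr12:88321362-88321481 (minus strand) for Gm5039.
Eif1ax: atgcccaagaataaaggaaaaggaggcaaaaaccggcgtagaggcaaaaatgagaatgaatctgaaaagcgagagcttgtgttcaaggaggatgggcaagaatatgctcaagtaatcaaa
Gm2016: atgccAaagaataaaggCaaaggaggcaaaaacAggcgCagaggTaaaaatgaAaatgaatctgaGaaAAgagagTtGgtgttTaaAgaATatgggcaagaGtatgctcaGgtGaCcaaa
Gm5662: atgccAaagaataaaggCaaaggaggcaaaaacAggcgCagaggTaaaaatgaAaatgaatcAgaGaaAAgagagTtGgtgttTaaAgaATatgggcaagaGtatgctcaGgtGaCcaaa
Gm8300: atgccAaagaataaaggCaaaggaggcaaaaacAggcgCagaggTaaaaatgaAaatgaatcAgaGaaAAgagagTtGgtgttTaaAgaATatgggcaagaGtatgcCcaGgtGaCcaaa
Gm5039: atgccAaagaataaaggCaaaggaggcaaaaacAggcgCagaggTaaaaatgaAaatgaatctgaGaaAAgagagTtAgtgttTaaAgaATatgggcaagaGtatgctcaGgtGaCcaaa

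The copies differed from Eif1ax at 19 to 21 of these 120 bases, and 19 of these positions differed in all 4 copies. Gm2016 was at 10.1 and 11.5 CPM in WT and at 28.8 and 18.9 CPM in Haspin-KO cells (log2 fold change 1.15, SE 0.20, edgeR adjusted p = 0.020). Gm5662, Gm8300 and Gm5039 had log2 fold changes of 1.12, 1.14 and 1.12. Summed over the 4 genes, the level was 43.9 and 41.4 CPM in WT and 114 and 73.4 CPM in Haspin-KO cells, with Haspin-KO replicate 1 the highest. As the 4 were chosen by their calls, the rise of their sum follows from that choice. Of the stretches of Gm8300, 15.7% recur in Gm8332 (log2 fold change 1.09, edgeR adjusted p = 0.053). Of those of Gm5039, 9.24% recur in BB287469 (log2 fold change 1.04, edgeR adjusted p = 0.143). Neither partner was called, and reads may be split with them. Some other Gm genes of the term that were not called had estimates above those of the 4, such as Gm2035 (1.39, edgeR adjusted p = 0.080). The 54 tested genes with a Gm symbol ran from -1.52 to 2.07, with a median of -0.06. Eif1a and Gm2016 shared 62 stretches of 50 bases, 1.42% of those of Eif1a, and Eif1ax and Gm2016 shared none. The calls of these 4 genes did not hold without WT replicate 1 (adjusted p 0.055 to 0.1002) or without WT replicate 2 (adjusted p 0.071 to 0.126). Without Haspin-KO replicate 1 they passed an adjusted p of 0.05, but their log2 fold changes were 0.71 to 0.83, so that 0 of them were DEGs. With the GC and length correction they were 0.86 to 0.92, and again 0 were DEGs. The markers of 2-cell-like cells moved in the same direction, as given above.

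Of the 21 genes that act with the factors but carry no Eif symbol, all were tested, 1 rose and 0 fell, and DESeq2 called the same gene. At an unadjusted p under 0.05, 1 was higher and 1 lower, against 10.4% of all genes in each direction. The gene that rose was Impact, named after its values were seen, whose product restrains the kinase GCN2. It was at 223 and 225 CPM in WT and at 306 and 279 CPM in Haspin-KO cells, without overlap (log2 fold change 0.39, SE 0.073, adjusted p = 0.031). Without WT replicate 1 its adjusted p was 0.140, without WT replicate 2 it was 0.115, without Haspin-KO replicate 1 it was 0.051, and with the GC and length correction it was 0.113 (log2 fold change 0.27). Ppp1r15a, which recruits the phosphatase of eIF2 alpha under stress, was at 35.3 and 31.8 CPM in WT and at 27.5 and 26.3 CPM in Haspin-KO cells (log2 fold change -0.32, adjusted p = 0.139). The median log2 fold change of the 21 genes was -0.03.

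Among 22 genes listed as Atf4 and its targets, which are induced when eIF2 is phosphorylated, edgeR called 0. At an unadjusted p under 0.05, 2 were higher and 4 lower, against 10.4% of all genes in each direction. DESeq2 called 1, Sesn2, which was higher. Atf4 was at 263 and 207 CPM in WT and at 225 and 186 CPM in Haspin-KO cells (log2 fold change -0.19, adjusted p = 0.402), and Ddit3, which encodes CHOP, had a log2 fold change of -0.30 (adjusted p = 0.480). Sesn2, an inhibitor of mTOR signalling, was at 165 and 171 CPM in WT and at 213 and 204 CPM in Haspin-KO cells (log2 fold change 0.31, adjusted p = 0.053). The median log2 fold change of the list was -0.14. Of 16 elongation and termination factor genes, 15 were tested, edgeR and DESeq2 called 0, and the median was -0.13. At an unadjusted p under 0.05, 2 were higher and 4 lower, against 10.4% of all genes in each direction. Both Haspin-KO libraries lay below WT for 9 of the 15 (60%), against 26.9% of all genes, and above for 2 (13.3%), against 25.3%. These shares were near those of the eIF3 genes.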

How the data were processed

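RNA-seq was done on 2 WT and 2 Haspin-KO libraries of E14 mESCs, grouped by the sample labels. Per the study's methods, the authors used Cutadapt (v1.9.1) for trimming and HISAT2 (v2.0.1) for mapping to mm10. Per the file headers, the deposited counts are raw reads per gene, and their totals differ between libraries. The submitters' processing notes also list HTSeq (0.6.1) and DESeq2. The strand setting, the treatment of multi-mapped reads and the release of the annotation were not given in the sources used here. FPKM values were deposited beside them, and 100% of these equal counts over exonic length and library total within rounding.

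The main test was edgeR's quasi-likelihood test (4.0.16, R 4.3.3) with TMM factors, its filter on low counts, no block, and Benjamini-Hochberg adjustment over all 15580 genes tested. Standard errors were taken from the F statistic and the log2 fold change, and intervals are 95%. Alternatives were DESeq2 (1.42.0), limma (3.58.1) on log2(FPKM + 0.1) where 2 or more libraries reached an FPKM of 0.5, DESeq2's size factors, library totals, no filter, at least 10 counts in every library, a replicate block, and each library left out in turn. A GC and length correction (loess, span 0.3) was added after seeing the data. A floor of 3 counts per library covers counting error only, while the intervals of edgeR include the spread between libraries.

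The members, lists and tests were chosen with earlier results of these data known. Members were named when their adjusted p was under 0.05, when they were among the 6 higher or 6 lower with the smallest unadjusted p, when they had the highest or lowest FPKM of a role, or when they were paralogs. Eif2s3y, Haspin and DEGs of the GO term were named beside them, and genes that fall outside this rule were named after their values were seen. Coordinates of all 57 members equal those of GENCODE M21 (GRCm38). Coding sequences were the longest of the reference gene and, for a copy, the one closest in length. Exons were compared in stretches of 50 bases. 9 members share over 20% of these stretches, compared on both strands, with other genes. For Eif3d and Eif4ebp3 the main partner is a gene that overlaps them, while others have near-identical copies elsewhere. The counts of these 9 members may be shared with such genes.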

Additional observations from a re-analysis of the deposited data

How the results depend on the processing

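The count of members called by edgeR at an adjusted p under 0.05, 0 in the report, was 1 with library totals (2.30% of all genes called), 1 with at least 10 counts in every library (2.44%), 2 with DESeq2 (1.65%) and 4 without a filter on low counts (4.09%). It was 0 with DESeq2's size factors, limma and the GC and length correction. Leaving out 1 library at a time gave 0 to 4 members, with 4 without Haspin-KO replicate 2 (5.34% of all genes). Under each of these settings 0 members passed a fold change over 2, and the median log2 fold change of the members stayed between -0.09 and -0.04. The lone library of a group was then assumed to vary like the other group.

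Libraries with the same replicate number share only that number in the labels. The correlation of the replicate 1 and 2 differences between the groups was 0.34 over genes, and with 2 pairs this does not establish a pairing. With the replicate block, which leaves 1 residual degree of freedom, 17 members were called (7 higher and 10 lower), and 22.6% of all genes. The prior degrees of freedom were infinite in this fit, against 7.42 in the main fit. Its p-values therefore rest on a variance trend shared over genes rather than on each gene's own spread. With the block and the GC correction together 11 members were called, and 16.2% of all genes.

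Other genes of the GO term that were DEGs, 5 in the report, numbered 8 without a filter, 17 with the block, 8 with the block and the GC correction, and 0 with limma or the GC correction. They numbered 0 to 10 when 1 library was left out, with 0 without WT replicate 1 or WT replicate 2 and 10 without Haspin-KO replicate 2. In the report 0.828% of all genes were DEGs, and the shares at that threshold are not given for the other settings. At an adjusted p under 0.05 alone, 2.50% of all genes were called in the report and 4.09% without a filter. That share was 22.6% with the block, 16.2% with the block and the GC correction, 1.54% with the GC correction and 0 with limma. The cause of the differences between settings was not tested.

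Haspin had a log2 fold change of -1.59 with limma (adjusted p = 0.115), and between -1.87 and -1.37 with 1 library left out, where it passed in each case. Eif4g2 changed sign to -0.011 under the GC correction, or -0.012 with the block, and Eif3e to -0.15, or -0.14 with the block. 12 of the 56 members changed sign under that correction, against at most 8 with 1 library left out and at most 1 under the remaining settings. The 3 members of lowest level among those tested with wide intervals, Eif4e1b, Eif4e3 and Eif4ebp3, had at most 20 counts in a library.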
